A study of Mus musculus with 2 samples.

Results

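Histone genes were described in Vγ6 γδ T cells, a γδ T cell subset of the fetal and newborn thymus, sorted from thymi of MHC class II KO mice, which lack these peptide-presenting molecules, and of wild-type (WT) mice. Every array row whose platform gene symbol was a histone symbol was taken, by the symbol alone and not by any measured value, including rows that list several genes. This gave 89 of 65956 rows, or 89 of the 32750 rows with a gene symbol, and they list 112 different histone symbols. Some of these symbols are an old and a current name of the same gene. Of the 89 rows, 69 carried Hist1 to Hist4 or c-numbered symbols and are called replication-dependent, and the other 20 are called variant. Both groups were C57BL/6 mice aged 0 days, with 1 array for MHC class II KO and 1 for WT. Neither the disrupted class II gene nor any pooling of animals is given in the labels. With 1 array per genotype no difference here has an error, a replicate check or a test, and every value describes these 2 arrays.

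Histones are the proteins that DNA is wound on: H2A, H2B, H3 and H4 form the core particle, and H1 binds the linker DNA. Replication-dependent histone genes lie in clusters, are transcribed mostly while DNA is being replicated, and give mRNAs that end in a stem-loop instead of a poly(A) tail. Variant histones such as H3.3 and H2A.Z are made throughout the cell cycle, mostly from polyadenylated mRNAs, and are put into chromatin by chaperones of their own. Cells that divide, such as progenitors in the thymus, depend on the replication-dependent supply. The RNA was labelled with GeneChip WT PLUS, a whole-transcript kit that does not rely on a poly(A) tail.

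Replication-dependent histone rows were higher with MHC class II KO as a class. Variant rows, with H2afx as the exception, lay closer to the rest of the array. The variant rows were also brighter, and no gap between the classes was taken at like signal. A row was counted as above background when at least 1 array passed the 95th percentile of 1228 olfactory receptor rows, a signal of 58.2 (MHC class II KO) and 61.3 (WT). Of the replication-dependent rows 57 of 69 were above background, 52 of them on both arrays and 5 with MHC class II KO alone. Of these 57 rows, 53 had a difference above 0 (log2 signal of MHC class II KO minus WT) and 4 below, where 56.2% of all 16009 rows with a symbol above background had one above 0. The 5 rows above background with MHC class II KO alone were admitted by the array on which they were brighter. Of the 52 rows above background on both arrays, 48 were above 0 and 12 at least 1.5-fold higher. After centring or loess correction 51 of the 57 were above 0. At least 1.5-fold higher were 13 of the 57, against 3.97% of all such rows, and none was at least 1.5-fold lower, against 2.81%. Their median difference was 0.39, beside a median of 0.04 over all such rows. At least 2-fold higher were 2 rows, against 0.825% of all rows, and none was 2-fold lower, against 0.793%.

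Of the 20 variant rows 12 were above background, all on both arrays. All 12 differences were above 0 as deposited (10 after centring on the median of all rows, 8 after loess correction), the median was 0.12, and 1 row was at least 1.5-fold and also at least 2-fold higher. The gap between the medians of the replication-dependent and variant classes was 0.26. It has no test, because rows of 1 family share sequence and each genotype has 1 array. The classes also differed in signal, with a median log2 signal of 8.87 (replication-dependent) and 13.2 (variant) on the MHC class II KO array. Replication-dependent rows with a mean log2 signal of 11 and over had a median difference of 0.25 (16 rows, from -0.11 to 0.96). Variant rows above background in that range were all but H2afy and H2af-ps. They ran from 0.03 (H2afj) to 0.45 (H3f3c), with H2afx at 1.21, so the classes overlapped there. The gap of 0.26 is not one at like signal, and none was taken within that range. For scale, the robust SD of the differences of all rows with a symbol was 0.25, and the gap between 2 rows of the same gene had an SD of 0.24 across 159 genes.

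**Figure D1:**
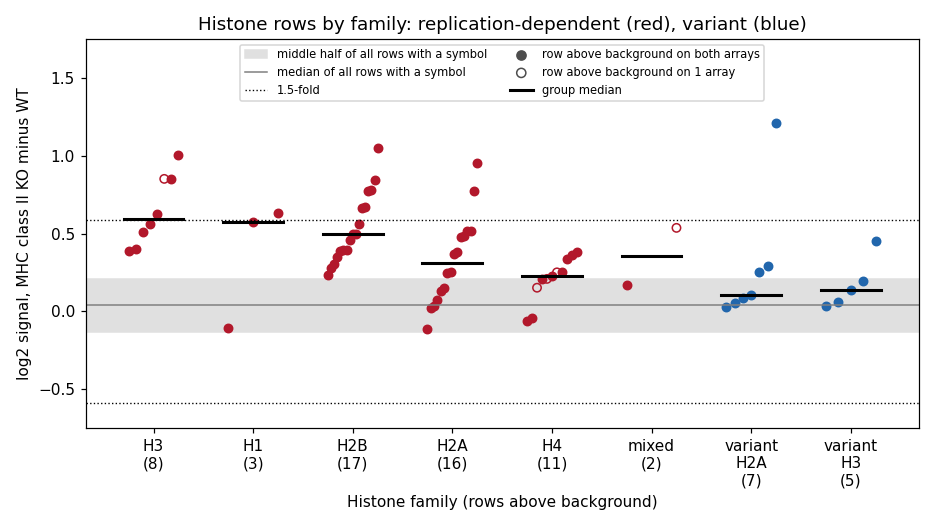
Each point is a histone row above background, placed by family along the horizontal axis, with its log2 difference, MHC class II KO minus WT, on the vertical axis. Red rows are replication-dependent and blue rows variant, black bars are medians, open circles were above background on 1 array, and the grey band is the interquartile range of all rows with a symbol. All 8 H3 rows lie above all 11 H4 rows (not after quantile normalization or loess correction), and H2afx (1.21) stands alone above the other variant rows.

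Over all rows above background the core histone families differed in their median difference, with H3 highest and H4 lowest. H3 rows had a median difference of 0.60 (8 of 10 rows above background, 4 of them at least 1.5-fold higher, range 0.39 to 1.01). H2B rows had a median of 0.50 (17 of 18 rows, 6 at least 1.5-fold higher, range 0.23 to 1.05). H2A rows had a median of 0.31 (16 of 20 rows, 2 at least 1.5-fold higher, range -0.11 to 0.96). H4 rows had a median of 0.22 (11 of 14 rows, none at least 1.5-fold apart, range -0.06 to 0.38). Over all rows with a symbol above background, 3.97% were at least 1.5-fold higher and 2.81% lower. A count of none among 11 H4 rows is near those shares. No H3 row fell within the range of the H4 rows as deposited. After quantile normalization the lowest H3 row (0.34) lay under the highest H4 row (0.36), and likewise after loess correction (0.30 and 0.32). Another 2 rows list genes of 2 families and were kept apart as mixed, at 0.54 and 0.17. The row at 0.54 was above background with MHC class II KO alone and is bounded at no less than 1.10-fold higher. Families are not independent samples of anything, since many of their rows list the same genes. They also differ in signal: no H3 row above background had a mean log2 signal of 11 or over, and no H4 row one of 8 to 11. At 11 and over the medians were 0.25 for H4 (5 rows), 0.25 for H2A (6 rows) and 0.56 for H2B (4 rows). Under 8 they were 0.63 for H3 (2 rows), 0.45 for H2A (6 rows), 0.39 for H2B (5 rows) and 0.21 for H4 (6 rows).

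The value of a row that lists several genes cannot be given to 1 of them. Most such rows list genes of 1 histone family. Of the 89 rows, 43 list several symbols. Such a row is called here by its leading symbol, the one listed first or more than once. The 10 rows listing the same 13 H4 symbols (Hist1h4a, b, c, d, f, h, i, j, k, m and n, Hist2h4 and Hist4h4) included 9 above background, and their differences ran from -0.06 to 0.38. The signals of these 9 with MHC class II KO ran from 67.2 (led by Hist1h4m) to 67736 (led by Hist1h4d). The row led by H4f16 lists 13 H4 genes under current names, among them Hist1h4a and Hist1h4b as H4c1 and H4c2, and was at 0.34. The 7 rows listing the same 10 H2A genes (Hist1h2ab, ac, ad, ae, ag, ah, ai, an, ao and ap) ran from 0.13 to 0.77. Their signals with MHC class II KO ran from 144 (led by Hist1h2ao) to 183853 (led by Hist1h2an). Rows with the same list thus differed widely in signal and do not read the listed genes alike. The 3 rows listing the same 8 H3 symbols (Hist1h3b, c, d, e and f, Hist2h3b, Hist2h3c1 and Hist2h3c2) ran from 0.85 to 1.01. Of those, 2, led by Hist2h3c1 and Hist2h3c2, had the same ratio between the arrays to 6 digits and may not be separate readings. The row led by H3c13 lists 8 H3 genes under current names, among them Hist1h3c and Hist1h3f, and was not above background. Replication-dependent rows that name 1 gene had a median of 0.48 (21 of 30 rows above background, 19 above 0), and rows that name several had a median of 0.38 (36 of 39 rows, 34 above 0).

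H3 is the core histone whose tail carries many of the marks read on chromatin. The row led by Hist1h3e, with 8 H3 genes, had a signal of 1391 (MHC class II KO) and 692 (WT), a difference of 1.01. The row of Hist1h3c, which names that gene alone, had signals of 636 (MHC class II KO) and 411 (WT), a difference of 0.63. Both rows were higher with MHC class II KO, and so were the other 6 H3 rows above background. The row of Hist1h3f alone had 369 (MHC class II KO) and 250.2 (WT), a difference of 0.56, just under 1.5-fold. Likewise, the row led by Hist2h3c1 had 640 (MHC class II KO) and 355 (WT), a difference of 0.85. Its companion led by Hist2h3c2 passed background with MHC class II KO alone, with a signal of 103 there and 57.0 on the WT array, and is bounded at no less than 1.67-fold higher.

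H2B rows were all higher with MHC class II KO. At the top, the row led by Hist1h2bg, which also lists Hist1h2be and Hist1h2bc, had signals of 1212 (MHC class II KO) and 586 (WT), and its difference of 1.05 led all replication-dependent rows. The row led by Hist1h2bl had 95112 (MHC class II KO) and 55385 (WT), a difference of 0.78, and the row led by Hist1h2bn had 82919 (MHC class II KO) and 52166 (WT), a difference of 0.67. Both list Hist1h2bf, Hist1h2bj, Hist1h2bl and Hist1h2bn, so neither value belongs to 1 gene. Hist1h2bk, in a row of its own, had 357 (MHC class II KO) and 209 (WT), a difference of 0.77. The row of Hist3h2ba, which also lists Hist3h2bb-ps, had 697 (MHC class II KO) and 388 (WT), a difference of 0.85. Hist2h2be, placed among the replication-dependent genes by its symbol, encodes in the mouse a form of H2B known from olfactory neurons, and had 346 (MHC class II KO) and 219 (WT), a difference of 0.66. The H2B row above background nearest to 0 is led by Hist1h2bc (0.23), although it names the same 3 genes as the Hist1h2bg row that led.

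H2A rows were more spread. Hist1h2ak, in a row of its own, had 12351 (MHC class II KO) and 6371 (WT), a difference of 0.96 (0.955 before rounding) and the highest of any replication-dependent row naming 1 gene. Next, the row led by Hist1h2ac had 227 (MHC class II KO) and 133 (WT), a difference of 0.77. These were the only H2A rows at least 1.5-fold higher. Of the 5 brightest replication-dependent rows, 2 were H2B rows past 1.5-fold (those led by Hist1h2bl and Hist1h2bn, above) and 3 were H2A rows within it. Hist1h2aj had 207365 (MHC class II KO) and 174985 (WT), a difference of 0.24. The row led by Hist1h2an, which lists the same 10 genes as that of Hist1h2ac, had 183853 (MHC class II KO) and 154209 (WT), a difference of 0.25. Hist1h2af had 137968 (MHC class II KO) and 106829 (WT), a difference of 0.37. Among the H2A rows led by genes of the smaller cluster on chromosome 3, H2ac20 had 468 (MHC class II KO) and 337 (WT), a difference of 0.48. The others above background lay near 0. The row of Hist2h2aa1 and Hist2h2aa2 together had 5696 (MHC class II KO) and 5618 (WT), a difference of 0.02 (below 0 once differences were centred or loess-corrected). Hist2h2aa2 alone had 78.3 (MHC class II KO) and 84.7 (WT), a difference of -0.11, the lowest replication-dependent row above background as deposited. Hist1h1c was lower after quantile normalization (-0.13, against -0.07 for Hist2h2aa2) and after loess correction (-0.18, against -0.08). Hist2h2ab had 149.8 (MHC class II KO) and 142 (WT), a difference of 0.08.

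H4 rows had the lowest median of the core families, though level with H2A among rows with a mean log2 signal of 11 and over. The row led by Hist1h4c had 3021 (MHC class II KO) and 2318 (WT), a difference of 0.38, the highest of the family, and the row led by Hist1h4h had 6677 (MHC class II KO) and 5194 (WT), a difference of 0.36. At the other end, the row led by Hist1h4i had 4536 (MHC class II KO) and 4734 (WT), a difference of -0.06. That row and the one led by Hist1h4k (-0.04, above 0 after quantile normalization) were the H4 rows above background with a difference below 0. Only 1 row naming a single H4 gene passed background, Hist1h4b, and it did so with MHC class II KO alone by a small margin (65.6 there, 59.0 on the WT array, at least 1.07-fold higher).

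Linker histone genes went both ways. Hist1h1a, which encodes H1.1, a form known from thymus and testis, had 982 (MHC class II KO) and 632 (WT), a difference of 0.64. Hist1h1b, which encodes H1.5, had 189 (MHC class II KO) and 127 (WT), a difference of 0.57. Hist1h1c, which encodes H1.2, was the other way, with 2994 (MHC class II KO) and 3228 (WT), a difference of -0.11. Hist1h1d and the testis gene Hist1h1t were not above background. The testis-type core genes Hist1h2ba and Hist1h2aa, which are also replication-dependent by symbol, were above background on both arrays, at differences of 0.50 and 0.15.

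**Figure D2:**
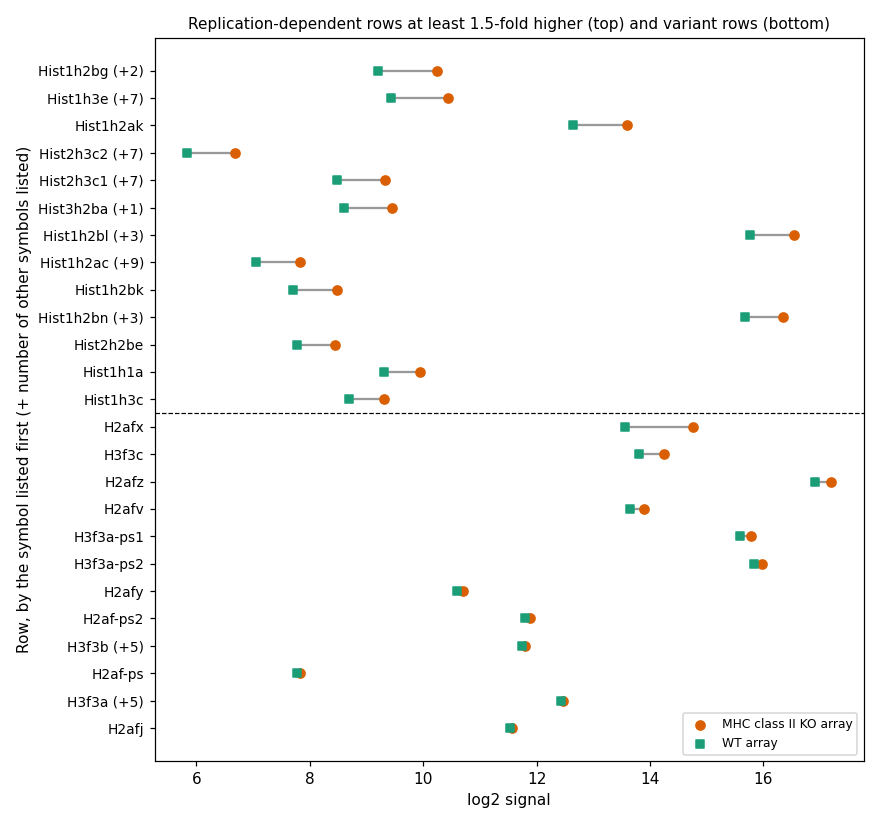
The horizontal axis gives the log2 signal of each row on the MHC class II KO array (orange circles) and the WT array (green squares), and the vertical axis lists the rows. The upper block holds the 13 replication-dependent rows at least 1.5-fold higher and the lower block the 12 variant rows above background, where only H2afx is wide apart and most pairs of markers touch.

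Among the variants, H2afx stood alone. It encodes H2A.X, the form of H2A that is phosphorylated around DNA breaks, and its gene is known to give both a stem-loop mRNA of the replication type and a polyadenylated one. Its signal was 27793 (MHC class II KO) and 12033 (WT), a difference of 1.21, or 2.31-fold, which was larger than that of any other histone row above background. Without it the other 11 variant rows had a median of 0.11 and a highest value of 0.45. A promoter sequence for this gene was not used here.

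The remaining variants were within 1.5-fold. H2afz, which encodes H2A.Z, a form placed at promoters and regulatory sites, had 150463 (MHC class II KO) and 122819 (WT), a difference of 0.29, and H2afv, for the second H2A.Z protein, had 15210 (MHC class II KO) and 12781 (WT), a difference of 0.25. H2afy, for macroH2A1, a form found on silent chromatin, had 1672 (MHC class II KO) and 1551 (WT), a difference of 0.11. H2afj, for H2A.J, had 3021 (MHC class II KO) and 2960 (WT), a difference of 0.03 (below 0 when centred or loess-corrected). These rows were each higher with MHC class II KO as deposited, by 0.03 to 0.29.

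The H3.3 genes, whose protein replaces H3 outside DNA replication, were within 1.5-fold, from 0.03 in a shared row to 0.45 for H3f3c. The row led by H3f3a had 5628 (MHC class II KO) and 5494 (WT), a difference of 0.03 (below 0 when centred or loess-corrected), and the row led by H3f3b had 3556 (MHC class II KO) and 3413 (WT), a difference of 0.06 (below 0 when loess-corrected). Both rows list H3f3a, H3f3b, H3f3c, Gm6749, Gm10257 and Gm12657, so the H3.3 genes are not told apart. H3f3c in a row of its own had 19507 (MHC class II KO) and 14252 (WT), a difference of 0.45. The pseudogene row H3f3a-ps1 had 56367 (MHC class II KO) and 49212 (WT), a difference of 0.20. H3f3a-ps2 had 64117 (MHC class II KO) and 58275 (WT), a difference of 0.14. H2af-ps2 had 3791 (MHC class II KO) and 3565 (WT), a difference of 0.09, and its gene identifier is listed in another row under the symbol Hist1h2al, so its place among the variants follows the symbol alone. H2af-ps had 228 (MHC class II KO) and 219 (WT), a difference of 0.05 (below 0 when loess-corrected). The 8 variant rows not above background were H2afb1, H2afb2, H2afb3, H2afy2, H2afy3, H1fx, H1foo and H1f7.

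The shift of the replication-dependent rows was seen at each level of signal. Rows with a mean log2 signal under 8 had a median of 0.36 (22 rows), where all rows with a symbol in that range had a median of 0 (6822 rows). Between 8 and 11 the medians were 0.56 (19 rows) and 0.09 (5810 rows), and from 11 upwards 0.25 (16 rows) and 0.03 (3377 rows). Rows were placed on a chromosome by their leading symbol. Hist1h2aj (0.24), the brightest replication-dependent row, had no match and was not placed. Rows led on chromosome 13 (the Hist1 cluster) had a median of 0.39 (43 rows above background). Those led on chromosome 3 (the Hist2 cluster) had one of 0.34 (10 rows). Many of these rows list genes of both clusters, such as those led by Hist2h3c1, Hist2h4 and Hist1h3e, so the medians are not of separate clusters. On chromosome 11 (the Hist3 genes) 2 rows were above background, at 0.85 and 0.31.

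**Figure D3:**
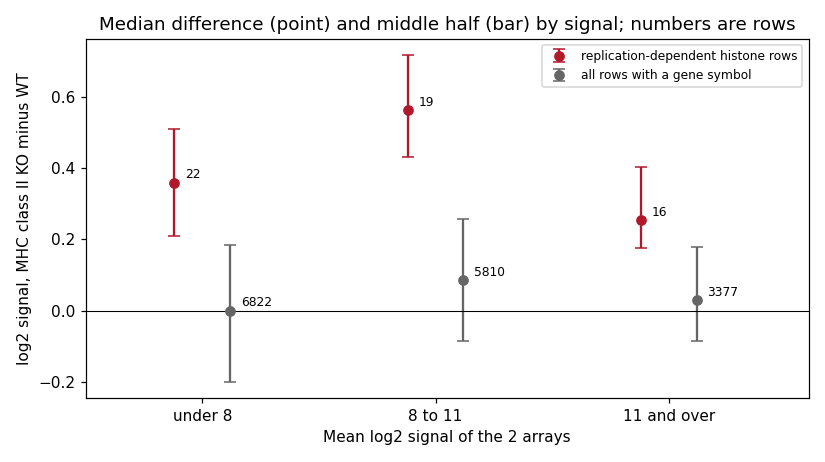
Points are the median log2 difference, MHC class II KO minus WT, on the vertical axis and bars the interquartile range, in 3 ranges of mean log2 signal on the horizontal axis. Replication-dependent histone rows (red, 22, 19 and 16 rows) have medians of 0.36, 0.56 and 0.25, each above that of all rows with a gene symbol (grey).

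Promoter sequences are shown for some replication-dependent genes and for a variant. The first are the replication-dependent genes with the largest differences among rows above background naming 1 gene, Hist1h2ak and Hist1h2bk. The genes leading the highest H3 row (Hist1h3e) and the lowest H4 row (Hist1h4i) above background, and the variant H2afz, were added after their values were seen. Those H3 and H4 rows list 8 and 13 genes, so their values do not place Hist1h3e or Hist1h4i at an end of the class. Each window holds 250 bases before to 50 after the start given by RefSeq on GRCm38.p6, 5′ to 3′ on the gene's strand. Capitals mark CCAAT and TATAAA on either strand. They also mark the octamer known from H2B promoters, ATTTGCAT, on either strand.
Hist1h2ak (H2ac15), chr13:21753863-21754162, - strand: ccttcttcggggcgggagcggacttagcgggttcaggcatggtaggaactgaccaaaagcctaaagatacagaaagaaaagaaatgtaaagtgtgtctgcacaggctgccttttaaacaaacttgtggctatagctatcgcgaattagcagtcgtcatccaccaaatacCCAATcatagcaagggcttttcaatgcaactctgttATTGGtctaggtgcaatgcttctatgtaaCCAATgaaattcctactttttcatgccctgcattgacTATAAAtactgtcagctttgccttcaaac
Hist1h2bk (H2bc12), chr13:22035571-22035870, + strand: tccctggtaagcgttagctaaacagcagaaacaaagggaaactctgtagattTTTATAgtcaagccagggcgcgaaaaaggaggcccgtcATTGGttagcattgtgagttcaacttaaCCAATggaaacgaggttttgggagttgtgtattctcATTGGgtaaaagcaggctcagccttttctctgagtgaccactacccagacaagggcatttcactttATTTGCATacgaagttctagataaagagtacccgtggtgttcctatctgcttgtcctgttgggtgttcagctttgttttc
Hist1h3e (H3c6), chr13:23562336-23562635, - strand: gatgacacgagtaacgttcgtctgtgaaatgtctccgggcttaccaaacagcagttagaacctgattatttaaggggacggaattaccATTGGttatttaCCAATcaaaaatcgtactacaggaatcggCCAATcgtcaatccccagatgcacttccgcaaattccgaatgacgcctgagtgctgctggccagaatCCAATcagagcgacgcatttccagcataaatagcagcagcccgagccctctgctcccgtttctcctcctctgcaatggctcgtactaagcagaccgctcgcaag
Hist1h4i (H4c9), chr13:22041313-22041612, - strand: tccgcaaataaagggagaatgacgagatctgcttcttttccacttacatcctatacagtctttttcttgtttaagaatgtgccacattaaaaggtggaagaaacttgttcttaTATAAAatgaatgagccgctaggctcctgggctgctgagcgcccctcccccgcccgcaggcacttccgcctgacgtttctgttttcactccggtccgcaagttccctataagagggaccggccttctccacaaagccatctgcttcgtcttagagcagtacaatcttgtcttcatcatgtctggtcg
H2afz (H2az1), chr3:137864237-137864536, + strand: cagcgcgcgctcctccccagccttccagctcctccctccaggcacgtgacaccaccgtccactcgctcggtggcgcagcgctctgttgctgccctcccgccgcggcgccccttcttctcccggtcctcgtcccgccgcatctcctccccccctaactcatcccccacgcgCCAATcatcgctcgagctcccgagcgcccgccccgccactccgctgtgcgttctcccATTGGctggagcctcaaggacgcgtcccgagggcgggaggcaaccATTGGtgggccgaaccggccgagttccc

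In these windows Hist1h2ak holds CCAAT 3 times and TATAAA once, 22 bases past the annotated start. Hist1h2bk holds CCAAT 3 times, TATAAA once on the other strand, and the octamer beginning 30 bases before the start. Hist1h3e holds CCAAT 4 times, Hist1h4i a single TATAAA beginning 137 bases before the start, and H2afz CCAAT 3 times. Of 85 histone gene identifiers 76 had a promoter window. CCAAT, on either strand, was in 85.7% of 63 replication-dependent windows, in 64.3% of 14 variant windows and in 37.4% of all 32851 windows. TATAAA was in 55.6% of replication-dependent windows, 7.14% of variant windows and 13.6% of all windows. The octamer was in 7 of 17 H2B windows and 7 of 18 H2A windows, in no H3 or H4 window, and in 1.74% of all windows. Among H4 windows 3 of 12 held CCAAT, where all 10 H3, 18 H2A, 17 H2B and 6 H1 windows did. Matches within the printed windows do not share letters. In other windows an octamer and a CCAAT on the other strand can, and each was then counted. A match describes the window, not a bound site.

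Many H2A and H2B genes lie head to head, and the RefSeq windows of 10 such pairs on chromosome 13 overlapped, so these windows share letters and motifs. Both rows were above background for 7 of the pairs. The H2B row was the more positive in 5 of these and the H2A row in 2. Facing genes could differ widely: the row led by Hist1h2bg had 1.05 while its neighbour Hist1h2ae had 0.38 in a row of 10 genes. Hist1h2ak had 0.96 (0.955) and its neighbour Hist1h2bn 0.67 in a row of 4 genes. Most of these rows list several copies, so they do not give the output of 1 promoter.

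Genes that make histone mRNA and handle histone protein had medians above that of all rows with a symbol (0.04), with no member past 1.5-fold. Of 9 genes of histone mRNA transcription and 3′ end processing above background, 6 were above 0 and 3 below, none reached 1.5-fold in either direction, and the median was 0.26. Lsm10, a subunit of the U7 particle that trims histone pre-mRNA, had signals of 616 (MHC class II KO) and 424 (WT), a difference of 0.54. Cpsf2 had 424 (MHC class II KO) and 299 (WT), a difference of 0.50, and Slbp, for the protein that binds the stem-loop, had 788 (MHC class II KO) and 627 (WT), a difference of 0.33. Sympk, for a scaffold of the cleavage complex, differed by 0.27. Npat, which activates replication-dependent histone genes in S phase, was at -0.10.

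Of 23 histone chaperones and deposition factors, all above background, 18 were above 0, 4 below and 1 at 0. None reached 1.5-fold in either direction, and their median was 0.19. With 3.97% of all rows 1.5-fold higher and 2.81% lower, a count of 0 among 9 or 23 genes is near the share of all rows. Cdan1, which binds ASF1, was at 0.39, Asf1b, an H3-H4 chaperone of dividing cells, at 0.38, Cabin1 of the H3.3 pathway at 0.37 and Znhit1 of the H2A.Z pathway at 0.34. Anp32e, which removes H2A.Z, was at -0.0015 and Atrx, of the other H3.3 pathway, at 0.03.

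The histone rows moved beside other lists on the same arrays. Of 26 genes of S phase and DNA replication above background, 24 were above 0, Ccne2 (1.13) and Rrm2 (0.93) were the 2 past 1.5-fold, and their median was 0.20. Of 19 genes of G2/M and mitosis all were above 0, 13 reached 1.5-fold or more, and their median was 0.72, with Cdc20 at 1.51 and Ttk at 1.18. The median of the replication-dependent histone rows, 0.39, lay between these values, and the part of the cell cycle in it was not tested. No gene of either list was at least 1.5-fold lower. Over all rows with a symbol above background, 56.2% were above 0, 3.97% at least 1.5-fold higher and 2.81% lower. The count of 2 among 26 S phase genes and the lack of lower genes are near those shares.

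Markers of double positive thymocytes were also higher. Of 12 markers 11 had a row of their own and 10 were above background, all with a difference above 0 and 8 past 1.5-fold, counting bounds. Over all rows with a symbol above background, 56.2% were above 0 and 3.97% at least 1.5-fold higher. Their summed signal was 36620 (MHC class II KO) and 15938 (WT), with a median difference of 0.80. The CD8 β chain gene Cd8b1 had 27602 (MHC class II KO) and 10634 (WT), a difference of 1.38. Dntt and Ptcra were above background with MHC class II KO alone. Both were admitted by the array on which they were brighter, so their signs were set by the filter. They count in the signs and the median, and Dntt also in the 1.5-fold count. Rag2 passed background on neither array. The part of such cells in the histone values was not tested, and more cells of a type cannot be told apart from more RNA per cell in bulk samples.

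Markers of the labelled cells were present on both arrays. All 9 with a row of their own were above background, with a median of 0.03. Their summed signal was 436646 (MHC class II KO) and 420749 (WT). Most of it came from Cd3e (119507 and 122517), Cd3d (115437 and 109235) and Cd3g (74809 and 60634), which other T cells share. The sum is thus not particular to Vγ6 cells. Of the 9 genes 1, Il17a at -1.57, was at least 1.5-fold lower, against 2.81% of all rows with a symbol above background. Blk was at 0.47 and Tcrg-V6, the receptor segment in the cells' name, at -0.31. Of 5 B cell markers 1 was above background (Cd79b, 0.11), of 6 myeloid markers 2 (Cd68 at 0.91, and Lyz2 with MHC class II KO alone), and of 5 epithelial markers 2 (Epcam and Krt8, on the WT array alone). No red cell marker was above background. Of the sex-linked genes, Kdm5d (0.75), Uty (0.62) and Eif2s3y (0.58) differed upwards and Xist (-0.56) downwards, and the part of the animals' sex in the histone values was not tested.

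**Figure D4:**
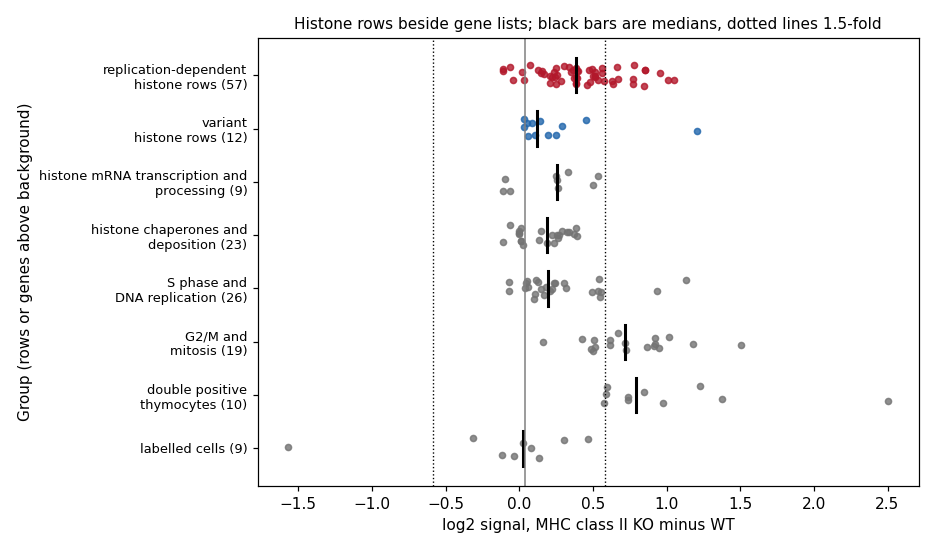
Each point is a row (histones) or a gene (lists) above background, with its log2 difference, MHC class II KO minus WT, on the horizontal axis and the group on the vertical axis. Medians (black bars) are 0.39 for replication-dependent histone rows, 0.12 for variant rows, 0.20 for S phase genes, 0.72 for mitosis genes and 0.80 for double positive thymocyte markers.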

How the data were processed

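Per the labels, total RNA of sorted Vγ6 γδ T cells was extracted, amplified, biotin-labelled and hybridised to whole-transcript arrays, 1 per genotype. The values as deposited are linear-scale intensities, with 1 value for each transcript cluster. RMA and Affymetrix Expression Console 1.4.1 are named per the submitters' processing notes, and neither their settings nor the genome build is stated in the sources used here. Histone rows above background exceeded 65535, the ceiling of a 16-bit scanner, in 7 cases (MHC class II KO) and 4 cases (WT), so the values are not plain scanner readings, and a rescaling step not described here could have changed every fold. The 2 arrays limit the precision.

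Python 3.11.15, numpy 2.4.6, pandas 2.3.3 and statsmodels 0.14.6 (loess) were used. Log2 was taken with no pseudocount. Where 1 array only was above background, the fold is a bound, the brighter signal over the other array's background, and bounds were used for counts at 1.5-fold. Medians used measured differences. Row symbols came from the platform annotation, which can be old. Gene lists used the brightest row naming 1 gene. Named were all variant rows above background, replication-dependent rows at least 1.5-fold apart or among the 5 brightest, highest or lowest, and 4 genes per histone supply list (2 per other list); other rows and genes were named after their values were seen. Proteins were not used here. Members and lists were chosen with earlier results of these data known. The alternatives were other scalings, background filters, thresholds and row rules, and the steps were tested on simulated data.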

Additional observations from a re-analysis of the deposited data

How the results depend on the processing

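Over 15 alternatives the median of the replication-dependent rows ran from 0.33 to 0.49, that of the variant rows from 0.06 to 0.24 and the gap between them from 0.17 to 0.34, all above 0. None of these alternatives compared the classes within the same range of signal. The variant median moved most when a mean replaced it (0.24). The count of 13 replication-dependent rows at least 1.5-fold higher became 5 when rows naming several genes were left out, 5 with rows naming 1 gene and above background on both arrays (an alternative chosen after seeing the data, as were leaving out pseudogenes, H2afx or the repeated ratio), 2 at 2-fold and 31 at 1.3-fold. None was lower under any of 16 alternatives. The variant count of 1 became 0 without H2afx and 2 at 1.3-fold, and with no background filter 1 variant row (H2afb2, under background) was lower. Over all rows with a symbol, 636 higher became 132 at 2-fold and 1700 at 1.3-fold. The 450 lower became 127 at 2-fold, 1120 at 1.3-fold, 249 with the 99th percentile as background and 793 with no filter. The median of all rows was -0.0011 after loess and -0.028 with no filter, and the cause was not tested. Loess left 51 of 57 replication-dependent rows and 8 of 12 variant rows above 0, with 11 of the 13 still at least 1.5-fold higher. No paired analysis was possible because each genotype has 1 array. Signal over background limits the 5 rows above it with MHC class II KO alone, whose folds are bounds.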

Other observations

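Some replication-dependent rows under background are given by their signals alone. Hist1h3g had a signal of 43.8 (MHC class II KO) and 23.1 (WT), and the row led by H3c13 had 53.0 (MHC class II KO) and 28.9 (WT). Among the variants, H2afb2 had 23.9 (MHC class II KO) and 36.9 (WT), both under background.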
